A study of Sus scrofa with 2 samples.

Results

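Matricellular genes were described in PSI, a clonal line of smooth muscle cells that comes from the ileum, the final stretch of the small intestine, of a pig. The 10 genes were THBS1, THBS2, THBS3, TNC, SPARC, POSTN, SPP1, CCN1, CCN2 and CCN3. They were chosen by name from the thrombospondin, tenascin, CCN and related families, and each was paired with 1 of the 25880 gene identifiers in the table, of which 14857 had a symbol. The data were 2 RNA-seq libraries of the clone, cultured in DMEM plus fetal bovine serum and antibiotics, with no treatment, time course, tissue or second line to compare it with. PSI is 1 clone, so its levels need not be those of smooth muscle in the ileum wall. The labels gave no separate cultures for the duplicates, so each SD is the spread of 2 libraries and may be technical only.

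Matricellular proteins are secreted into the extracellular matrix but, unlike collagens, they are not mainly structural. They bind integrins and other receptors, growth factors, proteases and matrix fibres, and so change how a cell adheres, migrates and responds to signals. Many are produced strongly in development, wound repair and cultured cells, and in muscle of the gut wall they are known from injury and fibrosis. They include thrombospondins, which bind cell surfaces and latent TGF-beta, tenascins, which weaken adhesion to fibronectin, SPARC, a collagen-binding glycoprotein, periostin, osteopontin (SPP1) and the CCN proteins, whose best known members are targets of YAP and SRF.

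The values are FPKM (fragments per kilobase of a gene, relative to the library total), so genes can be set side by side as far as the gene models are right. Replicates 1 and 2 had recovered totals of 35176565 and 32217729 reads or read pairs, at which a single read per kb equals 0.0284 and 0.0310 FPKM. Detected means that both libraries reached 1 FPKM. Of 9 smooth muscle markers 7 were detected, with ACTA2 at 693 ± 11.8 FPKM (SD, n = 2) and CNN1 at 254 ± 1.02. Of the 9 markers, 5 reached 10 FPKM in both libraries, against 32.8% of all identifiers with a symbol. TAGLN (5.34 and 5.58 FPKM in replicates 1 and 2) and DES (2.74 and 3.06) were lower. MYH11, which encodes a myosin heavy chain of smooth muscle, had 0.461 and 0.522 FPKM, and MYOCD, the coactivator myocardin, was listed at 0 in both libraries. No epithelial or leukocyte marker was detected (0 of 5 and 0 of 4 measured), and 1 of 4 endothelial, 0 of 3 glial, 3 of 5 fibroblast and 3 of 5 pericyte markers were. Of all identifiers with a symbol 61.5% were detected, beside 77.8% of the smooth muscle list. The fibroblast and pericyte counts (60% each) thus lay near the share of all. Summed over its list, the fibroblast level was 6.56 and 5.91 FPKM in replicates 1 and 2, and the pericyte level was 158 and 162. The pericyte sum came mainly from CSPG4 (mean 101.5) and PDGFRB (mean 44.3), whereas RGS5 had 0.00511 and 0 and ABCC9 was listed at 0. In bulk RNA a low level can reflect fewer cells that express a gene or less RNA per cell, which cannot be told apart. RPL29, a ribosomal gene used by every cell, was also listed at 0, so a gene at 0 is described only as listed at 0. Low values above 0 need the same care: TPI1, a glycolytic enzyme gene, had 0.424 and 0.224 FPKM, and the widely expressed genes PFN1 (6.49 and 6.26) and MYL6 (5.62 and 6.28) were also low. Not detected therefore means only that the table lists a gene below 1 FPKM.

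All 10 matricellular genes were detected, against 61.5% of all identifiers with a symbol. At 10 FPKM or more in both libraries there were 8 of 10 (32.8% of all), at 100 FPKM or more 6 of 10 (2.98% of all), and at 1000 FPKM or more 2 of 10 (0.141% of all). The median over the 10 genes was 7.54 on the log2(FPKM + 1) scale, and that over all identifiers with a symbol was 2.29. The genes were chosen with results of these data known, so these counts describe them and carry no test. Together they summed to 7320 FPKM in replicate 1 and 7302 in replicate 2, or 1.99% and 1.99% of each column's sum.

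The levels fell into a steep order. From the top it ran THBS1, SPARC, TNC, CCN2, CCN1, SPP1, POSTN, THBS3, THBS2 and CCN3, and the mean of THBS1 was 670 times that of CCN3. THBS1 and SPARC held 81.3% of the summed mean FPKM of the 10 genes, and 89.6% with TNC. The libraries of each gene lay above both libraries of the next gene in the order. The narrowest step was from THBS1 to SPARC, 1.02-fold in replicate 1 and 1.03-fold in replicate 2, and the next was from CCN2 to CCN1, 1.08-fold and 1.098-fold. The step from THBS2 to CCN3 was 1.42-fold and 1.38-fold, and the other steps were over 2-fold in both libraries. A comparison of 2 values with 2 cannot go below p = 0.333 in a two-sided exact permutation test, so no test was made, and an error in gene length can exceed the narrow steps.

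**Figure D1:**
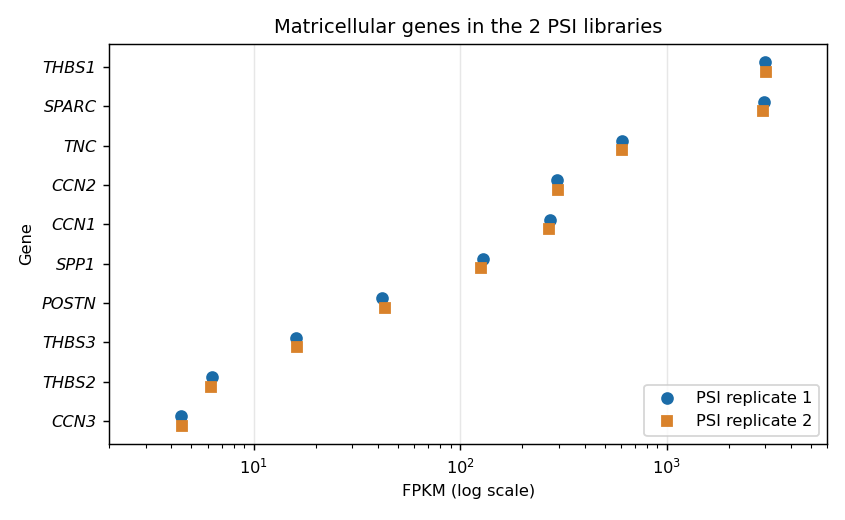
FPKM of each matricellular gene (log axis) in PSI replicate 1 (circles) and replicate 2 (squares), ordered by mean. The symbols of a gene lie almost on top of each other, and the genes run from 3003 and 3010 FPKM for THBS1 down to 4.46 and 4.52 for CCN3.

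Ranked by mean FPKM among the 14857 identifiers with a symbol, THBS1 was at position 8 and SPARC at position 9. TNC was at 51, CCN2 at 119, CCN1 at 130 and SPP1 at 326. POSTN was at 1282, THBS3 at 3473, THBS2 at 6336 and CCN3 at 7124. The genes closest in mean level were COL1A2 just above THBS1 (3555 ± 20.5 FPKM, SD, n = 2) and TMSB4X just below SPARC (2097 ± 100.3). TNC lay between S100A6 and TPM4, CCN2 between RPS15A and RAC1, CCN1 between RPS20 and IGFBP7, SPP1 between ANXA1 and JAG1, and POSTN between PSMD7 and GABARAPL2. THBS3 lay just below MPDZ, THBS2 between PIAS1 and BRMS1L, and CCN3 between ZYG11B and BBS2. This likeness is of the mean over 2 libraries of 1 condition and says nothing on how the genes vary.

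**Figure D2:**
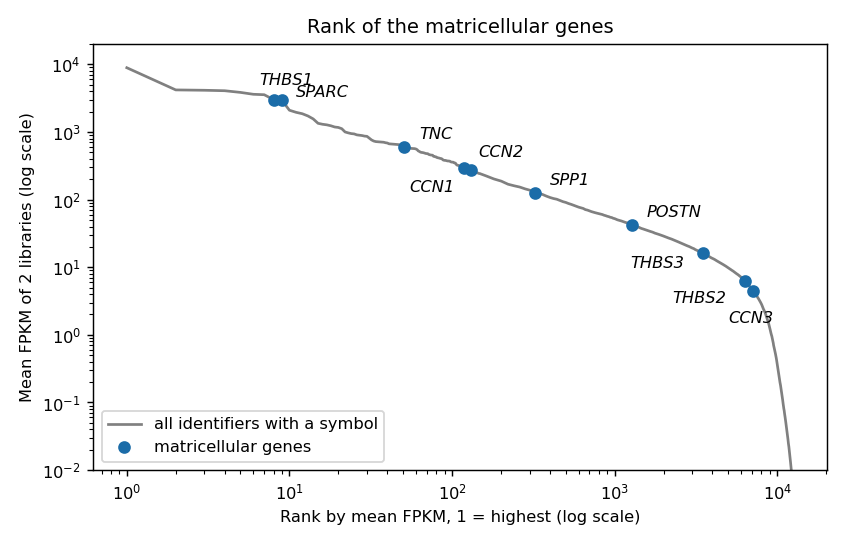
Mean FPKM of the 2 libraries (log axis) against rank among identifiers with a symbol (log axis, 1 is the highest). The grey line is all identifiers above 0 and the points are the matricellular genes, from THBS1 at rank 8 to CCN3 at rank 7124.

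The thrombospondin family held both the highest of the 10 genes and the one next to the lowest. THBS1, the trimeric thrombospondin that binds CD47 and activates latent TGF-beta, had 3003 FPKM in replicate 1 and 3010 in replicate 2. THBS2, its closest relative and also a trimer, had 6.31 and 6.25. THBS3, a member of the pentameric subgroup, had 15.97 and 16.2. No library of one overlapped a library of another: THBS1 exceeded THBS2 by 476-fold and 482-fold, and THBS3 by 188-fold and 185-fold, in replicates 1 and 2. THBS3 exceeded THBS2 by 2.53-fold and 2.60-fold. The reads behind these values were 614091 and 563903 for THBS1, 1319 and 1196 for THBS2 and 1694 and 1578 for THBS3, so counting error does not limit the order. Read counts do not cover an error in a gene model. The widely expressed gene PFN1 had 6.49 and 6.26 FPKM, near THBS2. Whether the gene model lowered THBS2 was not tested. The remaining pentameric thrombospondins were near the floor, THBS4 with 0.0592 and 0.0538 FPKM from 6 and 5 reads and COMP, a cartilage and tendon protein, with 0 and 0.0137 from 0 and 1 read. On the Sscrofa11.1 assembly RefSeq places THBS1 on chromosome 1 from 131728781 to 131746098, THBS2 on chromosome 1 from 854473 to 882467 and THBS3 on chromosome 4 from 94612702 to 94623905. A lncRNA model overlaps THBS3, and the neighbouring gene MTX1, 1263 bp away, had 0.763 and 0.803 FPKM.

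SPARC, which binds collagen and calcium and affects how collagen fibrils are assembled, had 2950 and 2919 FPKM in the first and second library, on 191485 and 173487 reads. Its level per length was close to that of THBS1 although THBS1 had more than 3 times the reads, since the gene length behind the SPARC value was 1845 bp and that behind THBS1 was 5814 bp. Of its 7 relatives, FSTL1, a secreted glycoprotein with a follistatin-like domain, was the other abundant one, with 599 and 578 FPKM, and SPARC exceeded it by 4.93-fold and 5.05-fold. SPOCK3, a testican proteoglycan, was detected at 1.03 and 1.23. The others were not detected: SPARCL1 (hevin) had 0.0804 and 0.0473 FPKM from 13 and 7 reads, SPOCK2 0.195 and 0.257, SPOCK1 0.0148 and 0.0324, SMOC1 0 and 0.0129 and SMOC2 0.0355 and 0. In both libraries SPARC and FSTL1 thus carried the SPARC family signal. RefSeq places SPARC on chromosome 16 from 71368164 to 71380972, inside a lncRNA model from 71297198 to 71435021.

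TNC, the tenascin that appears in developing and injured tissue and interferes with cell spreading on fibronectin, had 605 and 610 FPKM in the 2 libraries, on 184413 and 170262 reads. It stood far above the other tenascins in both libraries. TNN (tenascin-W) had 1.13 and 1.07 FPKM and was detected, TNXB, the tenascin of mature connective tissue, had 0.610 and 0.540, and TNR, a tenascin of the nervous system, was listed at 0 in both. TNC exceeded TNN by 538-fold and 570-fold, with a mean of 554-fold that fell to 290.3-fold with a pseudocount of 1 FPKM. RefSeq places TNC on chromosome 1 from 255533235 to 255630381, and no other gene model overlaps it.

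Among the CCN genes, CCN2 and CCN1 were abundant, CCN4 was intermediate and CCN3 was low. CCN2, known as connective tissue growth factor, had 293 FPKM in replicate 1 and 296 in replicate 2, and CCN1, known as CYR61, had 271 and 270. CCN3, known as NOV and described as an antagonist of CCN2 in several cell types, had 4.46 and 4.52. The 3 genes did not overlap between libraries: CCN1 exceeded CCN3 by 60.9-fold and 59.7-fold, and CCN2 exceeded it by 65.8-fold and 65.6-fold. Whether the gene model lowered CCN3 was not tested either. CCN4, a Wnt-responsive member, had 26.5 and 25.1 FPKM, so CCN1 exceeded it by 10.2-fold and 10.8-fold. CCN5, which lacks the C-terminal domain of its relatives, had 0.363 and 0.404, and CCN6 had 0.0818 and 0.0406. The RefSeq table lists these genes under their older names. It places CCN1 on chromosome 4 from 130392404 to 130395179, CCN2 on chromosome 1 from 31674398 to 31677697 and CCN3 on chromosome 4 from 19505698 to 19514481.

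The order of CCN1 and CCN2 depended on the gene length. The length behind the deposited value, recovered as the shortest that gives whole reads, was 4852 bp for CCN1 and 4598 bp for CCN2. Both were longer than the whole RefSeq gene, introns included, which spans 2776 bp and 3300 bp, or 1.75 and 1.39 times that span. The other 8 genes had a recovered length below their span, and among all identifiers with a symbol matched to RefSeq the length exceeded the span for 1.72%. Had the same reads been divided by the RefSeq span, CCN1 would have 474 and 472 FPKM and CCN2 409 and 413, which turns the order, with CCN2 at 0.868 times CCN1. With CCN3 kept at its recovered length, the ratio of CCN1 to CCN3 would be 105 in place of 60.3. That of CCN2 to CCN3 would be 91.5 in place of 65.7. CCN1 also lies within the RefSeq model of ZNHIT6, from 130298109 to 130409569, which had 28.9 and 30.8 FPKM. A read counter that drops reads falling in more than 1 gene model could lower CCN1, if the parts it counts overlap. The same could hold for SPARC, THBS3 and POSTN, each overlapped by a lncRNA model in RefSeq. Only whole gene spans were compared, not exons or strands. Whether reads were lost from any of these genes was not tested.

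**Figure D3:**
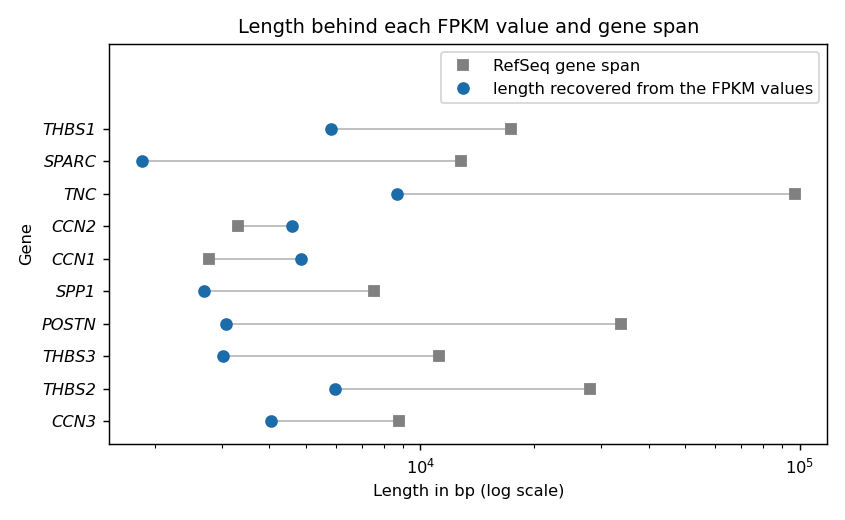
Gene length recovered from the FPKM values (circles) and RefSeq gene span (squares) in bp on a log axis, joined by a line for each matricellular gene. In CCN1 and CCN2 the recovered length exceeds the span, and in the other 8 genes it is below it.

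SPP1 and POSTN formed the middle of the range. SPP1, which encodes osteopontin, a phosphorylated ligand of integrins and CD44, had 128 and 126 FPKM in replicates 1 and 2, on 12123 and 10902 reads. SPP1 is the first gene of a cluster of related bone and tooth matrix genes on chromosome 8, where RefSeq places it from 131077786 to 131085334. MEPE, 101 kb away, and IBSP (bone sialoprotein), 123 kb away, were listed at 0 in both libraries, and DMP1, 199.9 kb away, had 0 and 0.0116 FPKM from 0 and 1 read. SPARCL1 lies 301 kb from SPP1 on the same side and was near the floor, as described above. PKD2, 18854 bp from SPP1 on the other side, had 33.02 and 33.1. DSPP, in the same cluster 233 kb from SPP1, had no identifier with that symbol and was not analysed here. Of the measured cluster genes MEPE, IBSP and DMP1, none came near SPP1 in either library.

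POSTN, which encodes periostin, a fasciclin-domain protein that binds collagen and integrins and promotes collagen crosslinking, had 41.8 and 43.5 FPKM in replicates 1 and 2, on 4522 and 4307 reads. Its relative TGFBI, a fasciclin-domain protein named for its response to TGF-beta, was higher in both libraries, with 76.5 and 79.7, or 1.83-fold and 1.83-fold the level of POSTN. RefSeq places POSTN on chromosome 11 from 13225183 to 13258973, and a lncRNA model overlaps it.

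The 5 further secreted proteins with matricellular roles that are reported here were uneven in level. PLAU, the urokinase plasminogen activator, had 102 and 102, ANGPTL4 11.9 and 12.7 and FBLN5, a fibulin of elastic fibres, 5.40 and 4.45. FBLN1 (0.105 and 0.0535) and FBLN2 (0.0649 and 0.0236) were not detected. Of 24 measured relatives of the 10 genes, 8 were detected (33.3%, against 61.5% of all identifiers with a symbol) and 3 were listed at 0 in both libraries. Their median was 0.10 on the log2(FPKM + 1) scale, against 2.29 over all identifiers with a symbol. In the thrombospondin, tenascin, CCN, SPARC and osteopontin families the highest of the 10 genes lay above every measured relative, and in the periostin family TGFBI lay above POSTN. The 10 genes were chosen from these families with results of these data known, so their place above the relatives is description and carries no test.

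**Figure D4:**
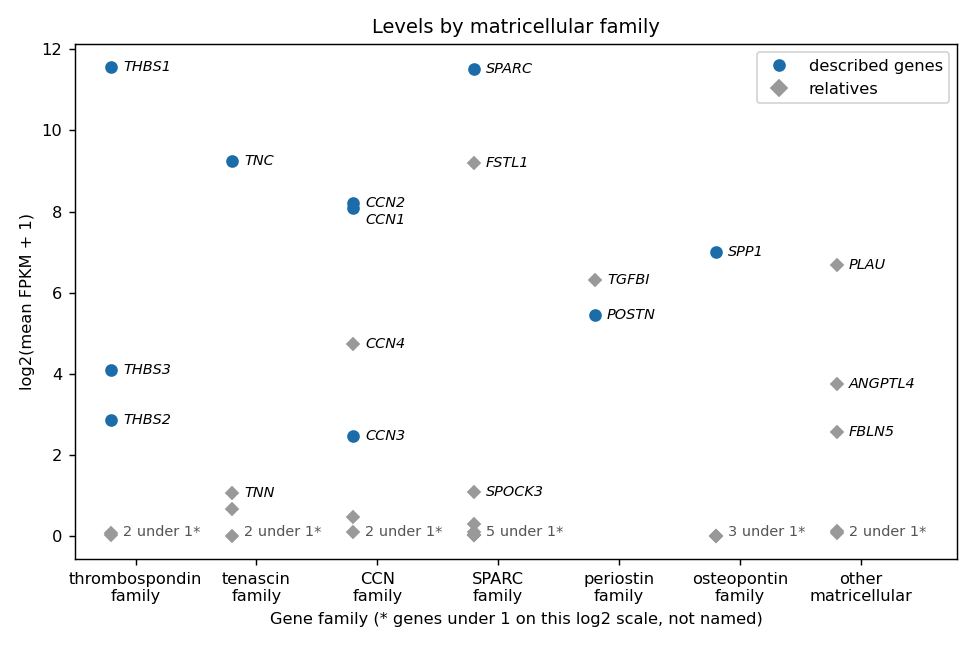
Level of each gene, as log2(mean FPKM + 1), by family, with the described genes as circles and their relatives as diamonds. Most families have 1 or 2 abundant genes and several near 0 on the log2(FPKM + 1) scale.

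The receptors to which these proteins bind were mostly expressed. Of 32 measured receptor genes 26 were detected (81.3%, against 61.5% of all), with a median of 4.23 on the log2(FPKM + 1) scale. Integrin beta-1, encoded by ITGB1 and shared by receptors of tenascin, CCN proteins and osteopontin, led the integrins with 644 and 656 FPKM. ITGA5, the fibronectin receptor subunit, had 135 and 136, ITGA8, a subunit of a receptor for osteopontin and tenascin-C that is typical of smooth muscle, had 72.1 and 71.2, and ITGAV, which pairs with several beta subunits to bind RGD sequences, 47.4 and 49.8. ITGA3, a laminin receptor subunit that also binds thrombospondin-1, had 28.8 and 30.4. ITGA8 exceeded ITGAV by 1.52-fold and 1.43-fold. Apart from ITGB1, the listed partners of ITGAV ranged from ITGB3 (26.6 and 27.4) and ITGB8 (14.7 and 14.6) to ITGB5 (4.81 and 4.97) and ITGB6 (0.176 and 0.119). ITGA9, which binds tenascin-C and osteopontin, had 0.115 and 0.0888 and was not detected, and neither were the leukocyte subunits ITGAM and ITGB2.

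Among the other receptors, ANXA2, annexin A2, a membrane-binding protein that tenascin-C binds at the cell surface, was the highest, with 1276 and 1271 FPKM. CD47, the receptor for the C-terminal part of thrombospondin-1, had 53.2 and 52.8 FPKM, so THBS1 lay 56.4-fold and 57.0-fold above it. CALR, calreticulin, which takes part in thrombospondin-1 binding at the cell surface, had 385 and 388, though most of this protein resides in the endoplasmic reticulum. CD44, a receptor of osteopontin and hyaluronan, had 120 and 115, and the syndecans SDC2 (117 and 120), SDC1 (56.6 and 55.97) and SDC3 (19.5 and 18.8) were detected. VLDLR, a lipoprotein receptor that binds thrombospondin-1, had 50.8 and 51.4, and NOTCH1, which binds CCN3, had 44.3 and 44.9. The CCN2-binding coreceptor LRP6 had 8.52 and 9.56. STAB1, a scavenger receptor that clears SPARC, had 0.0503 and 0.0462. CD36, LRP1, SDC4 and ITGA2B had no identifier with that symbol and were not analysed here.

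The listed genes of pathways that regulate matricellular genes were nearly all detected, mostly at moderate levels. Of 20 genes 19 were detected (95.0%, against 61.5% of all identifiers with a symbol), and the one that was not is MYOCD. All 6 YAP and TEAD genes were detected: YAP1 had 25.01 and 25.3 FPKM, WWTR1 (TAZ) 27.99 and 29.5, TEAD3 41.7 and 43.8 and TEAD1 37.04 and 37.9. SRF had 46.96 and 48.2 and its coactivators MRTFA 26.6 and 25.5 and MRTFB 3.94 and 3.69. All 10 TGF-beta pathway genes were detected, with TGFBR2, the ligand-binding receptor, at 84.99 and 84.9, TGFB2 at 73.5 and 76.6, LTBP1, which holds latent TGF-beta in the matrix, at 47.7 and 46.1, and TGFB1 at 46.2 and 46.1. Lowest in this pathway list were SMAD2 (6.01 and 6.67) and SMAD7 (6.10 and 6.87). Transcript levels do not show whether the listed factors were active, and with 1 condition their relation to the matricellular genes cannot be measured.

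Enzymes that cut or modify the proteins ranged from abundant to listed at 0. Of 12 measured proteases 7 were detected (58.3%, near the 61.5% of all identifiers with a symbol), with a list median of 1.65, below the 2.29 of all identifiers with a symbol. The serine protease HTRA1 had 544 and 552 FPKM, BMP1, a procollagen proteinase that periostin binds, 176 and 178, MMP14 150.5 and 149.8 and MMP2 57.9 and 57.7. ADAMTS4 had 32.8 and 32.5, and ADAMTS1, which cleaves thrombospondins, 2.75 and 2.76. MMP1 (0.0117 and 0.0509) and MMP9 (0.0378 and 0.0660) were not detected, and MMP7, which cuts osteopontin, and PLG, plasminogen, were listed at 0. All 4 measured modifying enzymes were detected. B3GLCT, which adds glucose to the fucose on thrombospondin repeats, had 26.3 and 26.3, the tryptophan mannosyltransferases DPY19L1 20.8 and 21.2 and DPY19L3 17.4 and 18.001, and FAM20C, the kinase that phosphorylates osteopontin, 14.1 and 15.1.

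The structural matrix to which these proteins attach was mostly abundant. All 10 genes were detected, against 61.5% of all identifiers with a symbol, and 8 reached 100 FPKM in both libraries (2.98% of all). The list median was 8.66, against 2.29 over all identifiers with a symbol. COL1A1 had 3588 and 3629 FPKM and exceeded SPARC by 1.22-fold and 1.24-fold. FN1, the fibronectin that tenascin-C binds, had 1357 and 1329, COL5A1 935 and 957, COL3A1 757 and 768, BGN 215 and 214, LOX, the collagen crosslinking enzyme, 161 and 164 and FBN1 126 and 127. VCAN was lower, with 19.05 and 18.5, and DCN, decorin, was the lowest with 2.52 and 1.89. THBS1 and SPARC were thus within the range of the fibrillar collagen transcripts, and TNC was below COL3A1 in both libraries.

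**Figure D5:**
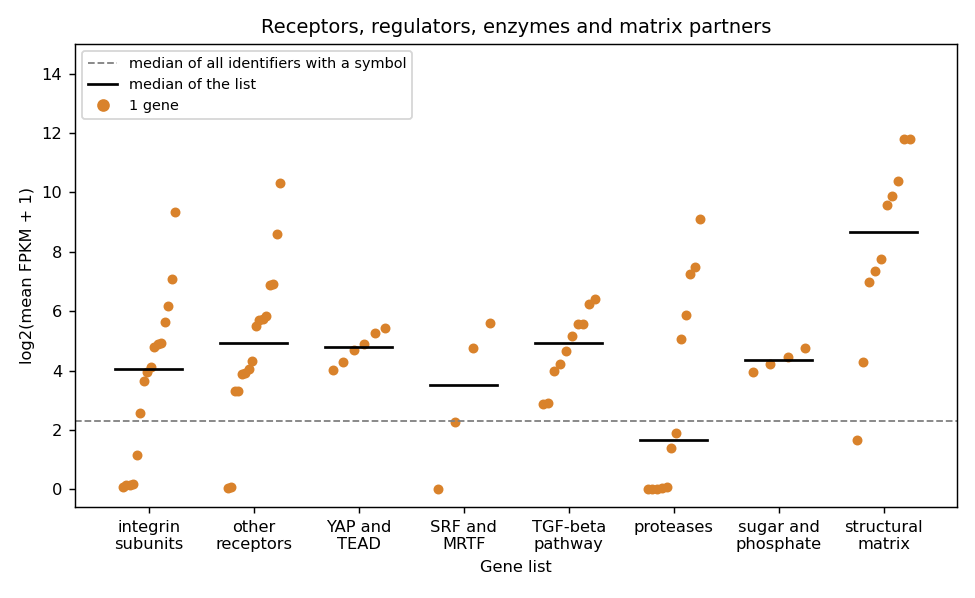
Levels, as log2(mean FPKM + 1), of receptor, regulator, enzyme and structural matrix genes, 1 point a gene, with the median of each list as a black bar and the median of all identifiers with a symbol (2.29) as a dashed line. The protease list has its median below the dashed line and the structural matrix list has the highest, at 8.66.

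The 10 genes differed little between the libraries. Their coefficients of variation ran from 0.184% (THBS1) to 2.77% (POSTN), with a median of 0.769%, against 2.62% over the 10738 identifiers with a mean of 1 FPKM or more. None was over 1.1-fold apart, whereas 17.4% of these identifiers were. This background is not matched for level: 6 of the 10 genes reached 100 FPKM in both libraries, against 2.98% of all identifiers with a symbol. Whether the 10 genes differed less than others of the same level was not tested. There were 6 genes higher in replicate 2 and 4 higher in replicate 1, a split that was not computed over all identifiers. The median size of the log2 difference was 0.02. SPP1 was 0.03 lower and POSTN 0.06 higher in replicate 2 on the log2 scale. An exact binomial test of the recovered reads, with Benjamini-Hochberg adjustment over the 16327 identifiers above 0, called 0 of the 10, against 1.11% of all. At an unadjusted p under 0.05 it called 2 of the 10. They were SPARC (p = 0.00107, adjusted p = 0.0718, exact binomial test) and TNC (p = 0.0170, adjusted p = 0.299, exact binomial test). The share of all identifiers at this unadjusted level was not computed, so the count of 2 has no background in the binomial test. This test compares 2 libraries, not conditions, covers counting error only, and does not show that the levels were equal.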

How the data were processed

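The 2 libraries, PSI replicates 1 and 2, formed 1 group, so no comparison between conditions was possible. Per the labels' protocols, TRIzol RNA was made into NEBNext Ultra libraries. The submitters' processing notes name TopHat2 2.0.12, HTSeq 0.6.1 and Sscrofa11.1. For the annotation release, strand setting and filters the sources used here give nothing. The authors deposited FPKM values, 1 column per library.

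A table of gene names gave the symbols, and coordinates come from RefSeq (Sscrofa11.1) by symbol, with older CCN names matched by hand, so the pairing was not checked by position. Library totals were recovered from the steps between low values, and reads as the smallest whole numbers under the shortest length from 50 to 30000 bp. They can be a fraction of the true reads, and summed to 90.8% and 90.8% of the totals. The recovery and the exact binomial test were tried on simulated reads that held counting error only. That simulation cannot show how the binomial test behaves where libraries spread further. Medians are on the log2(FPKM + 1) scale, where values below 1 FPKM are compressed. Reads are not independent molecules, so they cover counting error only. Computation used Python 3.11.15, pandas 2.3.3 and scipy 1.17.1.

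The 10 genes and the lists were chosen with earlier results of these data known. The text names these genes, their relatives, the higher of the listed genes that bind, cut, modify or switch on a matricellular gene, and the genes nearest in mean FPKM. Some lower listed genes (ITGB6, ITGA9, STAB1, ADAMTS1 and others) were picked for naming once their values were known. Alternatives changed the detection level, scaling, pseudocount, summary, rank background and gene length, and left out each library. One listed relative and one gene near in level are not reported here.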

Additional observations from a re-analysis of the deposited data

How the results depend on the processing

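Counts of detected genes, among the 10 genes and in the relatives, receptors, regulators, processing and matrix lists, stayed within 1.5 times their value at 0.1 or 5 FPKM, with 1 TPM as the level, and without replicate 1 or replicate 2, except that 5 relatives in place of 8 were detected at 5 FPKM. The median over the 10 genes was 7.54 on the log2(FPKM + 1) scale, 7.53 to 7.55 when a library was left out, and 7.05 as a mean, which low genes pull down. With CCN1 and CCN2 divided by their RefSeq span, an alternative chosen after seeing the data, the median was 7.84 and the ratio of CCN2 to CCN1 turned from 1.09 to 0.868. With CCN3 kept at its recovered length, the ratio of CCN1 to CCN3 then rose from 60.3 to 105. That of CCN2 to CCN3 rose from 65.7 to 91.5. With a pseudocount of 1 FPKM the ratio of TNC to TNN was 290.3 in place of 554, and the ratio of THBS1 to THBS2 413 in place of 479. Among all identifiers THBS1 ranked at position 9 and CCN3 at 8056. The binomial test was also added after seeing the data. Without a library no difference between libraries can be computed. No paired analysis was possible because the design has 1 group. Depth does not limit the 10 genes, each with 590 reads or more per library, but relatives with few reads, such as COMP and DMP1, cannot be ordered.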
